A study of Mus musculus with 4 samples.

Results

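Genes of glycolysis, pyruvate use and the pentose phosphate pathway were compared between pluripotent stem cell lines and mouse embryonic fibroblasts (MEF). The 46 genes were taken from a list of symbols that was chosen with earlier results of these data known. A gene counted as measured where the array had at least 1 probe set that carried its symbol alone. This gave 41 of the 46 genes, with 49 probe sets, out of 19938 measured genes. Gpi1, Pfkfb1, Eno1, G6pdx and Mpc2 had no probe set of their own and are not analysed here.

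Total RNA was measured on 1-colour Affymetrix arrays, 1 array for each of 4 samples. The tested samples were the induced pluripotent stem (iPS) lines 178B5 and 492B4, which are somatic cells returned to a pluripotent state, and the embryonic stem (ES) line v6.5, and they were set against MEF. MEF and both iPS lines had a mixed background of DBA/2, C57BL/6 and 129S4, while ES v6.5 came from an F1 of 129 and C57BL/6. No treatment was labelled, and the labels give neither the age of the embryos behind MEF nor the way the iPS lines were made. The 3 lines grew in serum medium with added non-essential amino acids and 2-mercaptoethanol on SNL feeder cells, a fibroblast line made resistant to puromycin and stopped with mitomycin-C. For MEF the labels name serum medium with neither addition and no feeders, so cell type, medium and feeders cannot be told apart. Each line is a single established line, and no repeat culture was labelled, so the spread between lines is the only error that can be given.

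Glycolysis splits glucose into pyruvate in the cytosol, and most steps can be run by several isozymes, related enzymes that are encoded by separate genes and used by different tissues. Pyruvate is then either reduced to lactate and exported or carried into mitochondria, where pyruvate dehydrogenase passes it on to the citric acid cycle. The pentose phosphate pathway branches off near the top and supplies NADPH and ribose. Mouse pluripotent cells are known for active glycolysis, with part of the pyruvate leaving as lactate. Neither the rate of glycolysis nor lactate was measured here.

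The deposited values are on a log scale, read here as log2, and each probe set was centred on its median over the 4 arrays. They are therefore differences between arrays, and the level of one gene cannot be set against that of another. The labels were checked against marker genes. All 8 pluripotency markers were higher in the lines, by 4.10 (Zfp42) to 8.06 log2 (Dppa5a). All 10 fibroblast markers were below MEF on each line's array, with 6 of them called, and their median difference from MEF was -3.94 log2 in iPS 178B5, -4.34 log2 in iPS 492B4 and -2.70 log2 in ES. In such bulk RNA, fewer cells of a type and less RNA per cell cannot be told apart.

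The 3 pluripotent lines were first set against MEF. The genes called higher encode 2 glucose transporters, 1 hexokinase, 1 phosphofructokinase subunit, 1 aldolase, 2 lactate transporters, and a kinase and a subunit of pyruvate dehydrogenase. For the hexokinase, phosphofructokinase, aldolase and kinase, other genes of the same family were not called. A gene was called where limma's adjusted p, over all 19938 genes, was under 0.05 and the difference was at least 1 log2, which is 2-fold. Of the 41 genes, 9 were called higher (Slc2a3, Aldoc, Pdk1, Slc16a3, Slc16a1, Hk2, Slc2a1, Pfkl and Pdhb) and 2 lower (Pdp1 and Eno3). Over all genes, 7.9% were called higher and 9.71% lower, 17.6% in all, against 11 of the 41. Because the list was chosen with earlier results known, its shares beside those of all genes are a description and no test of the pathway. With the p threshold alone, 12 of the 41 were higher and 4 lower, against 10.8% and 13% of all genes. At an unadjusted p under 0.05, 18 were higher and 7 lower, against 16.7% and 21% of all genes. The median difference was 0.32 log2 over the 41 genes and -0.10 log2 over all genes. In 22 of the 41 genes all 3 lines lay above MEF, in 10 all 3 lay below, and in 9 the lines fell on both sides; over all genes, 30.1% had all lines above MEF and 47.7% all lines below.

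**Figure D1:**
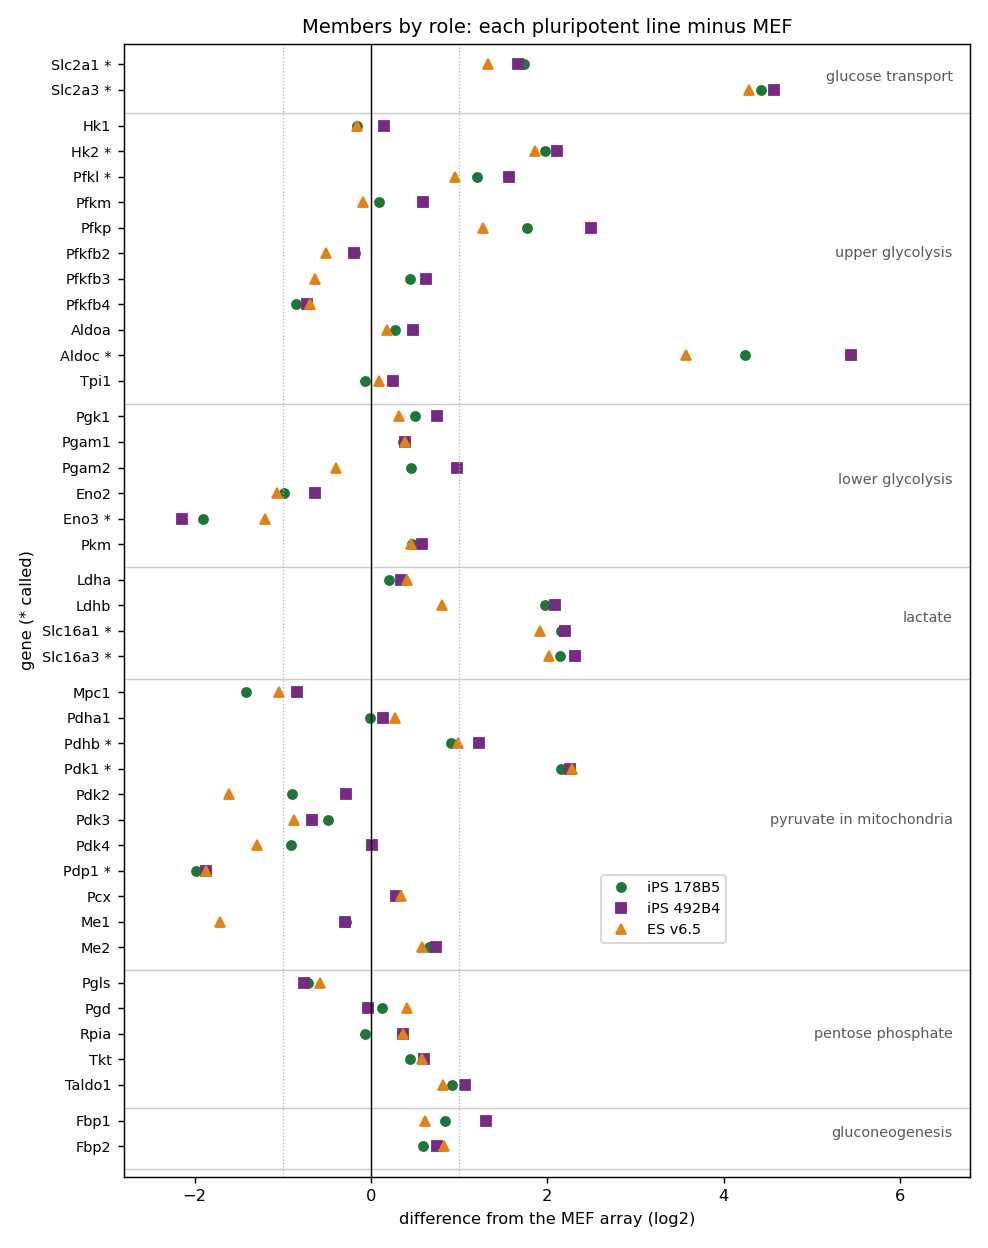
Difference of each pluripotent line from the MEF array (log2) for the 41 measured genes, ordered by role. Circles stand for iPS 178B5, squares for iPS 492B4 and triangles for ES v6.5, dotted lines mark 1 log2 in either direction, and an asterisk marks a called gene; Slc2a3 and Aldoc lie farthest right, at means of 4.43 and 4.42 log2.

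**Figure D2:**
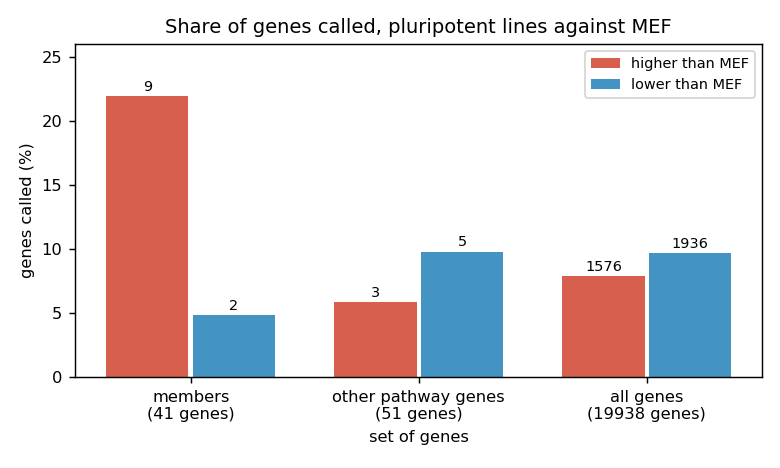
Percentage of genes called higher (red) and lower (blue) in the pluripotent lines against MEF, with the number of genes above each bar. Of 41 members 9 were higher and 2 lower, of 51 other genes of the pathway 3 were higher and 5 lower, and of all 19938 genes 1576 were higher and 1936 lower.

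Both glucose transporter genes among the 41, Slc2a1 and Slc2a3, were higher in the lines. Slc2a3, which encodes the high-affinity glucose transporter GLUT3, stood at 0.07 in iPS 178B5, 0.21 in iPS 492B4 and -0.07 in ES, against -4.36 in MEF (centred log2 values). The 3 lines lay within 0.28 log2 of each other and far above MEF. Slc2a3 rose by 4.43 ± 0.14 log2 (SD, n = 3 lines), or 21.5-fold (limma, adjusted p = 0.00447), and ranked 50th from the top of all 19938 genes. Slc2a1, which encodes GLUT1, the transporter found in most cells, stood at 0.24, 0.17 and -0.17 in iPS 178B5, iPS 492B4 and ES, against -1.50 in MEF. It rose by 1.58 ± 0.22 log2, or 2.98-fold (adjusted p = 0.0140). Without iPS 178B5 its adjusted p was 0.0609 and it was not called. Leaving out that line also cut the calls over all genes, from 1576 to 613 higher and from 1936 to 744 lower.

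Hexokinase traps glucose in the cell as glucose 6-phosphate. Hk2, an inducible hexokinase, stood at 0.06 in iPS 178B5, 0.20 in iPS 492B4 and -0.06 in ES, against -1.92 in MEF. Each line was well above MEF, and Hk2 rose by 1.98 ± 0.13 log2, or 3.95-fold (adjusted p = 0.00625). Hk1, the hexokinase of most adult tissues, differed from MEF by -0.16, 0.14 and -0.16 log2 in the same lines and was not called (adjusted p = 0.857). Its 2 probe sets pointed opposite ways, at -0.32 and 0.20 log2. It also shares 16 further probe sets with other gene symbols, which were not used.

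Phosphofructokinase commits sugar to glycolysis, and its 3 subunit genes did not move alike. Pfkl, the liver-type subunit, stood at 0.12, 0.49 and -0.12 in iPS 178B5, iPS 492B4 and ES, against -1.08 in MEF, and rose by 1.24 ± 0.31 log2 (adjusted p = 0.0397). Pfkp, the platelet-type subunit, had a larger mean difference of 1.85 log2, but the lines spread from 1.28 log2 in ES to 2.50 log2 in iPS 492B4 (SD 0.62), and it was not called (adjusted p = 0.0641). It was called without ES (2.13 log2, adjusted p = 0.0173) and without iPS 492B4 (1.52 log2, adjusted p = 0.0461). Pfkp was not called without iPS 178B5, with equal array medians or with reference gene centring. Pfkm, the muscle-type subunit, lay at 0.09 and 0.59 log2 from MEF in iPS 178B5 and iPS 492B4 and at -0.09 log2 in ES. With iPS 178B5 left out, Pfkl lost its call (adjusted p = 0.119).

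The bifunctional enzymes that make and remove fructose 2,6-bisphosphate, the activator of phosphofructokinase, were not called. Pfkfb3, whose product favours its synthesis, was 0.44 and 0.63 log2 above MEF in iPS 178B5 and iPS 492B4 but -0.63 log2 from MEF in ES. Pfkfb4 passed the p threshold but not the fold minimum, at -0.75 ± 0.09 log2 (adjusted p = 0.0300). Pfkfb2 stood at -0.30 log2.

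Aldolase cleaves fructose 1,6-bisphosphate, and the contrast between its isozymes had the largest mean over the 3 lines of the pairs compared, although in ES the gaps of Pdk1 over Pdk2 and Pdk4 were larger. Aldoc, the aldolase known from brain, stood at 0.33 in iPS 178B5, 1.54 in iPS 492B4 and -0.33 in ES, against -3.91 in MEF. All 3 lines were far above MEF, with iPS 492B4 highest, and Aldoc rose by 4.42 ± 0.95 log2, or 21.4-fold (adjusted p = 0.0214). With iPS 178B5 left out the mean was 4.51 log2, but the call was lost (adjusted p = 0.0667). Aldoa, the main aldolase of muscle and most other tissues, was 0.18 to 0.48 log2 above MEF and was not called (adjusted p = 0.283). Tpi1, which interconverts the triose phosphates, stood at 0.09 log2, and at -0.031 log2 with the arrays centred on reference genes.

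The later steps of glycolysis turn triose phosphates into pyruvate and yield ATP. None of their 6 measured genes was called higher by limma, against 7.9% of all genes, and so few genes cannot be told from that share. At an unadjusted p under 0.05 Pgam1 and Pkm were higher, against 16.7% of all genes. Pgk1, phosphoglycerate kinase, stood at 0.52 ± 0.21 log2, Pgam1, phosphoglycerate mutase, at 0.38 ± 0.02 log2, and Pkm, pyruvate kinase, at 0.50 ± 0.07 log2, all 3 with every line above MEF. Their probe sets gave close values for Pgk1 (0.52 to 0.53 log2) and Pgam1 (0.29 to 0.42 log2) but not for Pkm, where they gave 0.73 and 0.28 log2. Near-identical copies of such genes exist in the genome, and any signal from them cannot be told apart here.

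Enolase makes phosphoenolpyruvate, and both of its genes among the 41, Eno2 and Eno3, were below MEF in every line. Eno4, an enolase gene outside the 41, was 0.32 to 0.45 log2 above MEF in the lines and was not called (adjusted p = 0.123). Eno3, the enolase of muscle, stood at -0.35 in iPS 178B5, -0.59 in iPS 492B4 and 0.35 in ES, against 1.55 in MEF. It fell by 1.75 log2 (SD 0.49, n = 3 lines), so that MEF was 3.36-fold higher (adjusted p = 0.0445). Its call was lost when either iPS 178B5 (adjusted p = 0.124) or iPS 492B4 (adjusted p = 0.0709) was left out. Eno2, the enolase of neurons, stood at -0.90 log2 (adjusted p = 0.0538). It was called with reference gene centring (-1.02 log2, adjusted p = 0.0352) and without iPS 492B4 (-1.03 log2, adjusted p = 0.0378). Eno2 was not called with equal array medians, without iPS 178B5 or without ES. Of 9 skeletal muscle markers, 1 was called lower, Acta1 at -2.64 log2, against 9.71% of all genes. In 4 of the 9 all 3 lines lay above MEF and in 4 all 3 lay below, and the median of the 9 was -0.06 log2. The part of these markers in the Eno3 value was not tested. Pgam2, the mutase of muscle, was 0.45 and 0.97 log2 above MEF in iPS 178B5 and iPS 492B4 but -0.40 log2 from MEF in ES, and was not called.

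Lactate dehydrogenase reduces pyruvate to lactate, and the monocarboxylate transporters carry lactate across the membrane. Slc16a3, which encodes the lactate exporter MCT4, stood at 0.06 in iPS 178B5, 0.24 in iPS 492B4 and -0.06 in ES, against -2.08 in MEF. It rose by 2.16 ± 0.15 log2, or 4.47-fold (adjusted p = 0.00605). Slc16a1, which encodes the transporter MCT1, which can carry lactate in or out, stood at 0.12, 0.16 and -0.12 in the same lines, against -2.04 in MEF, and rose by 2.09 ± 0.15 log2, or 4.26-fold (adjusted p = 0.00643). The differences of these transporters from MEF were within 0.12 log2 of each other in each line.

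Ldha, whose subunit favours lactate formation, was 0.20 to 0.41 log2 above MEF and was not called (adjusted p = 0.223). Ldhb, the subunit typical of heart, stood at 0.59 in iPS 178B5, 0.70 in iPS 492B4 and -0.59 in ES, against -1.39 in MEF. Every line was above MEF, the iPS lines by 1.98 and 2.09 log2 and ES by 0.80 log2. With that spread Ldhb was not called over the 3 lines (1.62 ± 0.71 log2, adjusted p = 0.117). Without ES it was called (2.03 log2, adjusted p = 0.00359).

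At the mitochondrial entry of pyruvate, the genes of pyruvate dehydrogenase control moved in both directions. Pdk1, a kinase that inactivates the complex, stood at -0.05 in iPS 178B5, 0.05 in iPS 492B4 and 0.08 in ES, against -2.21 in MEF. The lines were within 0.13 log2 of each other, and Pdk1 rose by 2.23 ± 0.07 log2, or 4.69-fold (adjusted p = 0.00548). Pdp1, a phosphatase that reactivates the complex, stood at -0.12, 0.0040 and -0.0040 in the same lines, against 1.87 in MEF. It fell by 1.91 log2 (SD 0.07, n = 3 lines), so that MEF was 3.75-fold higher (adjusted p = 0.00574). The other kinases were not called, with Pdk2 at -0.93 ± 0.67 log2, Pdk3 at -0.67 ± 0.19 log2 and Pdk4 at -0.73 ± 0.67 log2.

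Of the genes of the pyruvate dehydrogenase complex itself, Pdhb, its beta subunit, stood at -0.04, 0.27 and 0.04 in iPS 178B5, iPS 492B4 and ES, against -0.95 in MEF. It rose by 1.04 ± 0.16 log2 (adjusted p = 0.0236), close to the fold minimum. It was not called with reference gene centring (0.91 log2), without iPS 492B4 (0.95 log2) or without iPS 178B5 (1.10 log2, adjusted p = 0.0805). Pdha1, the catalytic alpha subunit, stood at 0.13 log2. Mpc1, part of the carrier that brings pyruvate into mitochondria, was below MEF by 1.42, 0.83 and 1.05 log2 in iPS 178B5, iPS 492B4 and ES, and narrowly missed the p threshold (mean -1.10 log2, adjusted p = 0.0503). It was called with reference gene centring (-1.22 log2, adjusted p = 0.0350) and without iPS 492B4 (-1.23 log2, adjusted p = 0.0496). It was not called with equal array medians, without iPS 178B5 or without ES.

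Pyruvate carboxylase and malic enzyme link pyruvate to oxaloacetate and malate. Pcx, the carboxylase, was 0.28 to 0.35 log2 above MEF, a difference that did not pass (adjusted p = 0.185). Me2, a mitochondrial malic enzyme, passed the p threshold but not the fold minimum, at 0.66 ± 0.08 log2 (adjusted p = 0.0407). Me1, the cytosolic malic enzyme that makes NADPH, was -0.28 and -0.29 log2 from MEF in iPS 178B5 and iPS 492B4 and -1.71 log2 in ES. Me1 was not called against MEF (adjusted p = 0.458).

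None of the 5 measured pentose phosphate genes was called by limma. At an unadjusted p under 0.05 there were 3, Taldo1 and Tkt higher and Pgls lower, against 37.8% of all genes in either direction. In the non-oxidative branch, which exchanges sugar phosphates with glycolysis, Taldo1 (transaldolase) stood at 0.94 ± 0.12 log2 and Tkt (transketolase) at 0.54 ± 0.08 log2. Taldo1 passed the p threshold (adjusted p = 0.0230) and lay just under the fold minimum, and it was called with equal array medians (1.01 log2). Rpia, which makes ribose 5-phosphate, stood at 0.22 log2. In the oxidative branch, which makes NADPH, Pgls stood at -0.68 ± 0.09 log2 (adjusted p = 0.0401) and Pgd at 0.17 log2. The bisphosphatase genes Fbp1 and Fbp2, which oppose phosphofructokinase in gluconeogenesis, stood at 0.92 ± 0.35 and 0.72 ± 0.12 log2, and Fbp1 was called without ES (1.08 log2, adjusted p = 0.0386).

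Set side by side within each line, isozymes of 1 step differed by up to several log2 in their change from MEF. These are differences of differences between arrays, given without a test. The change of Aldoc exceeded that of Aldoa by 3.96 log2 in iPS 178B5, 4.97 log2 in iPS 492B4 and 3.40 log2 in ES. That of Slc2a3 exceeded Slc2a1 by 2.69, 2.90 and 2.96 log2 in the same lines, and that of Hk2 exceeded Hk1 by 2.13, 1.97 and 2.02 log2. The change of Pdk1 was above that of each other Pdk gene in every line, by 2.25 to 3.89 log2. For Ldhb over Ldha the iPS lines gave 1.78 and 1.75 log2 and ES 0.39 log2. Slc16a3 and Slc16a1 gave 0.07 ± 0.08 log2 (SD, n = 3 lines), a gap smaller than the spread between lines.

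**Figure D3:**
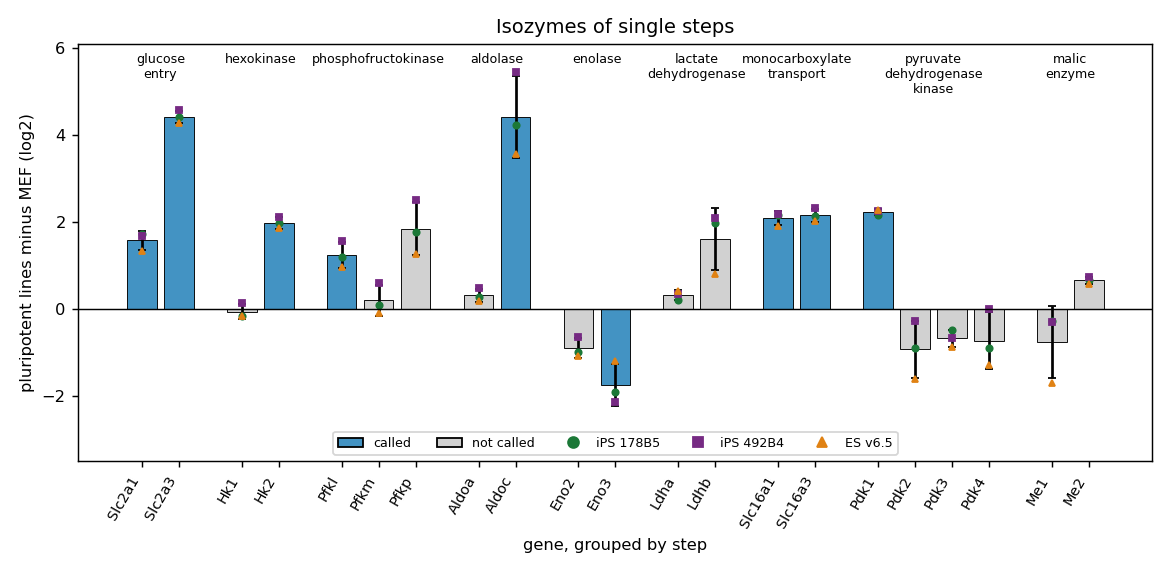
Difference of the pluripotent lines from MEF (log2) for isozymes or related transporters of 9 steps. Bars give the mean of the 3 lines, error bars the SD, and points the single lines (circle iPS 178B5, square iPS 492B4, triangle ES v6.5); blue bars are called genes. Within glucose entry, hexokinase, aldolase and pyruvate dehydrogenase kinase, 1 gene stands clearly above the rest in every line.

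Of 51 measured genes of the same pathways outside these 41, 3 were called higher and 5 lower, or 5.88% and 9.80%, against 7.9% and 9.71% of all genes. Their median difference was 0.05 log2, against -0.10 log2 over all genes, and 20 had all 3 lines above MEF and 20 all 3 below. The 3 higher were Ldhc, a lactate dehydrogenase known from testis (1.52 log2, adjusted p = 0.0210), Emb, a partner protein of monocarboxylate transporters (1.48 log2, adjusted p = 0.0406), and Pdp2, the other pyruvate dehydrogenase phosphatase (1.23 ± 0.07 log2, adjusted p = 0.0104). Pdp2 and Pdp1 thus stood on opposite sides of MEF in all 3 lines. The 5 lower had adjusted p of 0.00479 to 0.00891. They included Slc16a7, which encodes the transporter MCT2 (-3.12 log2), and Slc2a13 (-3.03 log2) and Slc2a10 (-2.50 log2) of the Slc2a transporter family. The others were H6pd, a hexose 6-phosphate dehydrogenase of the endoplasmic reticulum (-1.56 log2), and Me3, a mitochondrial malic enzyme (-1.41 log2).

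Of 9 regulators of these pathways, 2 were called higher and 0 lower, against 7.9% and 9.71% of all genes. Epas1, which encodes the hypoxia factor HIF-2 alpha, rose by 2.31 ± 0.63 log2 (adjusted p = 0.0389), and Mlxipl, a glucose-responsive transcription factor, by 1.17 ± 0.31 log2 (adjusted p = 0.0461). Hif1a, which encodes HIF-1 alpha, had a mean of -0.75 log2 (SD 0.12; adjusted p = 0.0367) and so missed the fold minimum. Txnip, an inhibitor of glucose uptake, was 2.34 and 2.83 log2 above MEF in iPS 178B5 and iPS 492B4 and 0.73 log2 above it in ES, and was not called (adjusted p = 0.183).

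The promoters of the 41 genes, called or not, were searched for ACGTG and GCGTG, the core letters bound by the hypoxia-inducible factors. Both strands of the 250 bases before the most upstream RefSeq start (GRCm38.p6) were read. ACGTG also lies inside the E-box CACGTG. Of the 41 genes 38 had a promoter in the table, and 30 of these 38 (78.9%) held ACGTG or GCGTG, against 46.4% of 15614 promoters of measured genes. The letters were found in 8 of 8 promoters of genes called higher, in 1 of 1 called lower (Eno3) and in 21 of 29 (72.4%) of those not called. Counting ACGTG and leaving GCGTG aside, 5 of the 8 and 9 of the 29 held it, against 18.4% of all promoters. Slc2a3 and Pdp1 are among the genes without an entry. Printed here are 4 genes that were called higher, for entry (Slc2a1), trapping (Hk2), export (Slc16a3) and the mitochondrial gate (Pdk1), and Ldha, which was not called; capitals mark every match (CACGT and CACGC on the printed strand are the same letters read on the other), and each sequence runs 5′ to 3′ on the gene's strand.
Slc2a1, chr4:119108495-119108744, plus strand: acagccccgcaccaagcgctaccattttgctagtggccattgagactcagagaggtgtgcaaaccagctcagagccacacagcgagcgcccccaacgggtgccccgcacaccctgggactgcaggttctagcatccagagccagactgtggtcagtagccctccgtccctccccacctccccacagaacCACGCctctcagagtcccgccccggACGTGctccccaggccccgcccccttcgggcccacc
Hk2, chr6:82774455-82774704, minus strand: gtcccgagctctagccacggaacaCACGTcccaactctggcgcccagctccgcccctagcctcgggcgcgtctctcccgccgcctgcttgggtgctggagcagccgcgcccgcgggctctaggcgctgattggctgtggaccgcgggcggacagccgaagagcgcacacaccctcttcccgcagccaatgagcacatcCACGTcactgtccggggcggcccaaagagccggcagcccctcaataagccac
Slc16a3, chr11:120948817-120949066, plus strand: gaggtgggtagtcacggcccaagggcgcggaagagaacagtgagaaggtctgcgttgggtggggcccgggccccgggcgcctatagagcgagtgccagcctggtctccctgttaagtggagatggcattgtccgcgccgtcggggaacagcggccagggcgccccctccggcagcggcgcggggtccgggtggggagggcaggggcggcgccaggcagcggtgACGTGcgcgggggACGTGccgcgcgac
Pdk1, chr2:71872974-71873223, plus strand: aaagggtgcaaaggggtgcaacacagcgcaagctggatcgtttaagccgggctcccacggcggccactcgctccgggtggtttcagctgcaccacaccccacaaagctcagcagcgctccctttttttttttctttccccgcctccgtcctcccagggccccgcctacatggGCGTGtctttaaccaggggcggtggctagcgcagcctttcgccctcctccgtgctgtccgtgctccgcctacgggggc
Ldha, chr7:46845554-46845803, plus strand: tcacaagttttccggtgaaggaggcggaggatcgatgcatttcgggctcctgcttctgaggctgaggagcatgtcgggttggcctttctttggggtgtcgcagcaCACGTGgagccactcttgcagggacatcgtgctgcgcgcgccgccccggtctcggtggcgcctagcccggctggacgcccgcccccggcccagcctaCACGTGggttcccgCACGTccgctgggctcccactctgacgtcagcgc
The matches nearest to the start began 36 bases before it in Slc2a1, 52 in Hk2, 14 in Slc16a3, 78 in Pdk1 and 34 in Ldha. Ldha, at 0.32 log2 from MEF, held 3 separate matches, and so did Slc16a1, which was called higher. Pdha1, Pfkp and Pgam1, not called, also held 3, and Pdk3, below MEF in all 3 lines and not called, held 4. Both ACGTG and GCGTG hold the letters CG, and no set of promoters with a like CG content was compared. The letters are a description of these windows and show no binding.

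The iPS lines were also set against the ES line. By limma 0 of the 41 genes and 0% of all 19938 genes were called. At an unadjusted p under 0.05 there were 6 of the 41, 5 higher and 1 lower in iPS, and 15.4% of all genes (7.51% higher and 7.93% lower). This fit takes its spread from the iPS lines alone and assumes that ES varies like them.

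Me1 had the largest difference of the 41, at 0.0056 in iPS 178B5 and -0.0056 in iPS 492B4, against -1.42 in ES (iPS minus ES 1.42 ± 0.14 log2, limma SE; adjusted p = 0.0975). Both of its probe sets gave close values, 1.46 and 1.38 log2. Aldoc had the next largest mean, 1.27 log2, but its iPS lines lay 1.21 log2 apart (adjusted p = 0.379). Ldhb stood at 0.59 and 0.70 in the iPS lines, against -0.59 in ES (1.23 ± 0.15 log2, SE; adjusted p = 0.113). Pfkfb3 stood at 0.22 and 0.41 in the iPS lines, against -0.85 in ES (1.17 ± 0.16 log2, SE; adjusted p = 0.132). In Me1, Ldhb and Pfkfb3 the iPS lines lay close together and apart from ES. A small unadjusted p in this fit favours such genes, so the pattern is no separate evidence.

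Pgam2 was 0.85 and 1.37 log2 above ES in iPS 178B5 and iPS 492B4 (adjusted p = 0.230), and Pdk2 0.71 and 1.33 log2 above it (adjusted p = 0.278). Eno3 was -0.71 and -0.94 log2 from ES in the same lines (adjusted p = 0.198). Markers of other cell types moved with this contrast. All 10 fibroblast markers were lower in iPS than in ES, with a median of -1.79 log2, and all 8 primitive endoderm markers, genes of an early extraembryonic lineage, were higher, with a median of 1.44 log2. Their part in the differences above was not tested. For Me1, Pfkfb3, Pgam2 and Pdk2 the ES value lay below that of MEF, while for Ldhb and Eno3 it lay between MEF and the iPS lines. The strain of ES also differed from that of the iPS lines, and strain and cell type cannot be told apart.

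**Figure D4:**
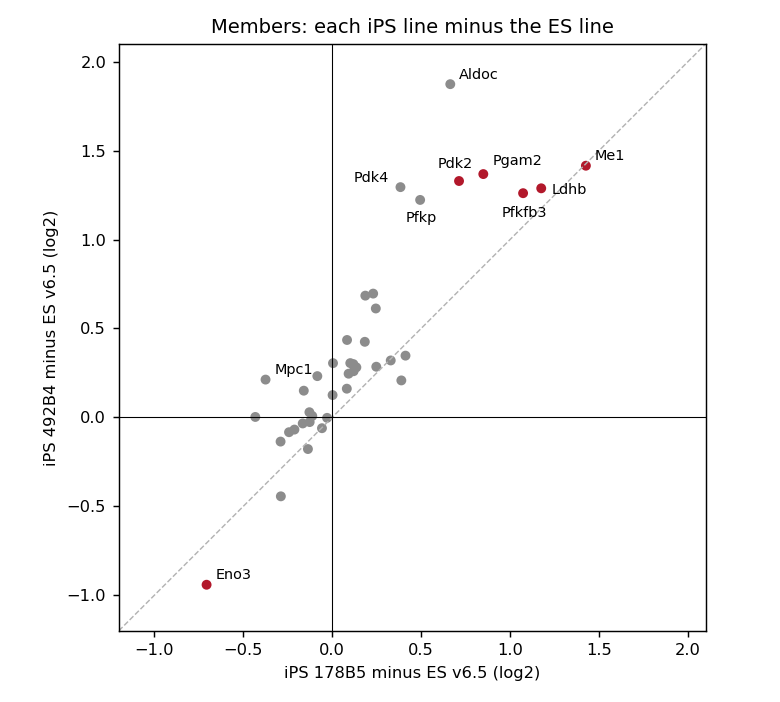
Each iPS line minus the ES line (log2) for the 41 genes, with iPS 178B5 on the horizontal and iPS 492B4 on the vertical axis; the dashed line marks equal values. Red points have an unadjusted limma p under 0.05, none passed adjustment, and genes at least 0.5 log2 apart between the iPS lines are named too. Most points lie above the dashed line, where iPS 492B4 is higher than iPS 178B5.

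The iPS lines were set against each other by value alone, with 1 array each. Line 492B4 was above line 178B5 in 33 of the 41 genes (80.5%), while it was above in 46.8% of all genes. Among the 51 other pathway genes it was above in 25 (49.0%), by at least 0.5 log2 in 5, and below by that much in 1. Among the 41 genes, line 492B4 was higher by at least 0.5 log2 in 6 and lower by that much in 0, against 3.66% and 3.3% of all genes. The 6 were Aldoc (1.21 log2), Pdk4 (0.91 log2), Pfkp (0.73 log2), Pdk2 (0.62 log2), Mpc1 (0.59 log2) and Pgam2 (0.52 log2). The genes come from 1 pair of arrays and are not independent of each other. The median of the reference genes was 0.015 in line 178B5 and 0.032 in line 492B4 (centred log2 values). With the arrays centred on these genes, the counts were again 33, 6 and 0, against 43.3%, 3.40% and 3.63% of all genes. With equal array medians they were 35, 7 and 0, against 49.0%, 3.88% and 3.14%. Between the same lines, the median difference was -0.34 log2 for fibroblast markers and -0.73 log2 for primitive endoderm markers, and their part was not tested.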

How the data were processed

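Per the submitters' processing notes, the authors' deposited values were made with GCRMA (no version named), a method that removes background, brings the arrays to a common scale and joins probes into probe sets. The deposited table held log2 values, with the log base taken as 2, for 28853 probe sets on 4 arrays. The median of every probe set over the 4 arrays was 0 within 5e-07, so no filter on dim probe sets could be set and no level was available. Of the probe sets, 21789 had 1 gene symbol in the platform annotation, 1621 had several and 5443 had none there; those with 1 were averaged per gene.

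All 19938 genes were fitted together in limma 3.58.1 (R 4.3.3), with moderated variances and p-values adjusted by Benjamini-Hochberg. The fit against MEF was tested on simulated data with the same 4 arrays and an equal spread in MEF and the lines; the fit of iPS against ES was not. The fit of 3 lines against MEF had 2 residual degrees of freedom, and MEF, with 1 array, was taken to have the spread of the lines. The fit with 3 groups, used for iPS against ES, had 1. Only the spread among these samples enters the p-values, and the number of arrays limits the precision. The members and lists were chosen with earlier results of these data known. Every measured member may be named, and all called genes among the other pathway genes, the regulators and the reference genes are. Called marker genes were not all named. Alternatives were array scaling (equal medians, or 13 reference genes), each line left out, robust moderation, genes with 1 probe set, no fold minimum and, added after seeing the data, probe sets fitted singly. The reference genes were not all stable. Of the 13, 2 were called higher against MEF (Tfrc and Tbp) and 2 lower (B2m and Gusb), or 15.4% each. Over all genes the shares were 7.9% and 9.71%. Figures used matplotlib 3.10.9. Promoter sequences are from RefSeq (GRCm38.p6).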

Additional observations from a re-analysis of the deposited data

Results flagged for a closer look

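In 3 genes both iPS lines lay on one side of MEF and the ES line on the other. The iPS minus ES difference was 1.17 log2 for Pfkfb3 (limma, adjusted p = 0.132), 1.11 log2 for Pgam2 (adjusted p = 0.230) and 0.44 log2 for Pfkm (adjusted p = 0.479). None passed the test of the difference. Pfkfb3 was 0.44 and 0.63 log2 above MEF in iPS 178B5 and iPS 492B4 and -0.63 log2 from it in ES. For Pfkm the iPS 178B5 and ES differences from MEF, 0.09 and -0.09 log2, were small.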

How the results depend on the processing

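No paired analysis was possible because the labels give no replicate numbers that groups share. The number of members called higher was 8 to 10 under both scalings, and 5 to 12 with 1 line left out, lowest without iPS 178B5; Slc2a3, Pdk1, Hk2, Slc16a1 and Slc16a3 were the 5 called there. The number lower was 4 with reference gene centring and 4 with no fold minimum, and 1 to 3 with 1 line left out. Over all genes, the numbers higher and lower were 613 to 1981 and 744 to 2235 with 1 line left out, lowest without iPS 178B5, and 1328 and 2291 with reference gene centring against 1700 and 1730 with equal medians. Reference gene centring moved the median of all genes by -0.12 log2. For iPS against ES, 44 genes were called with equal array medians and 42 with reference gene centring, 0 of them members. Signs that turned were those of Hk1 (0.015 log2 with equal medians and 0.20 log2 in its second probe set fitted singly, an alternative added after seeing the data), Tpi1 (-0.031 log2 with reference gene centring), Pfkfb3 (-0.0981 to 0.53 log2 with 1 line left out, below 0 without either iPS line) and Pfkm (-0.000839 to 0.34 log2, lowest without iPS 492B4), none of them called; the cause was not tested. Without ES, 12 members were called higher, among them Ldhb, Pfkp and Fbp1. With 1 array per line, the spread between lines is the only error available.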

Other observations

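Gapdh, which runs the step between Tpi1 and Pgk1, had no probe set of its own, but 25 probe sets whose annotation lists it together with other gene symbols. Their differences between the pluripotent lines and MEF ran from -0.000305 to 0.0469 log2, with a median of 0.0229 log2.

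Several genes of the wider pathways had large gaps between the iPS lines and ES that did not pass adjustment. Hkdc1, a hexokinase-like gene, was 2.07 log2 higher in iPS than in ES (limma, adjusted p = 0.0716). Txnip was 1.85 log2 higher (adjusted p = 0.132), its relative Arrdc4 1.29 log2 higher (adjusted p = 0.151), and Tktl1, a transketolase-like gene, 1.64 log2 higher (adjusted p = 0.206). Tigar, which lowers fructose 2,6-bisphosphate, was 0.82 log2 lower in iPS than in ES (-0.82 log2, adjusted p = 0.166). These genes were picked after their values were seen.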
